A study of Mus musculus with 4 samples.

Results

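Indian hedgehog and parathyroid hormone-related protein (PTHrP) form the signalling loop that sets the pace of cartilage maturation in the growth plate, and 9 genes of that loop were followed through injury-induced heterotopic ossification (HO) in mouse muscle. They were Ihh, Ptch1, Smo, Gli1, Gli2, Gli3, Hhip, Pthlh and Pth1r. The genes were taken by symbol from the feature tables, and all 9 were found among 32285 features. The RNA came from fresh frozen tibial muscle of C57BL/6 mice, 6-8 weeks old and of genotype Nse-Bmp4, and was captured on spatially barcoded slides. These mice carry a Bmp4 transgene under the neuron-specific enolase promoter, so every section, the uninjured control included, came from muscle exposed to the transgene. The 4 sections were uninjured muscle (day 0) and muscle 1, 3 and 7 days after injury, which per the methods of the study was made with cardiotoxin, and there was 1 section a day. Per the labels, 3 tibial muscles were pooled for a group, and the number of muscles behind a section was not worked out.

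In the growth plate, chondrocytes that leave the cell cycle secrete Ihh, and the signal reaches its receptor Ptch1 on neighbouring cells. Binding frees the transducer Smo from Ptch1, and the Gli transcription factors then switch on target genes, among them Ptch1, Gli1 and the decoy receptor Hhip. Ihh also maintains expression of Pthlh, which encodes PTHrP, in cells at the end of the bone and in the perichondrium, and PTHrP acting on Pth1r holds chondrocytes back from hypertrophy. Ihh and Pth1r are both known as markers of prehypertrophic cartilage.

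Promoter sequence was looked at because several of these genes were high in the same places. RefSeq windows on GRCm38.p6, from 250 bases before to 50 bases after a transcription start, were present for 8 of the 9 genes, with 3 starts for Pth1r and 1 for each other gene. The Ihh window is shown because Ihh had the largest ratio of the 9 genes, and the Gli2 window because it was the only window of the set with the core of a GLI motif, in capitals. Sequences read 5′ to 3′ along the transcribed strand.
Ihh, chr1:74951623-74951922, minus strand: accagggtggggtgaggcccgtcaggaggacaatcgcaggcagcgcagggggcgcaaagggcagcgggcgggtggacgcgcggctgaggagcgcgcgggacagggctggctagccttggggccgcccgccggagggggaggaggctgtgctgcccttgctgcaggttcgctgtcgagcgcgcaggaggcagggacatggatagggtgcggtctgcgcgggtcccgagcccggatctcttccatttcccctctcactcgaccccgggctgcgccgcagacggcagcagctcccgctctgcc
Gli2, chr1:119053570-119053869, minus strand: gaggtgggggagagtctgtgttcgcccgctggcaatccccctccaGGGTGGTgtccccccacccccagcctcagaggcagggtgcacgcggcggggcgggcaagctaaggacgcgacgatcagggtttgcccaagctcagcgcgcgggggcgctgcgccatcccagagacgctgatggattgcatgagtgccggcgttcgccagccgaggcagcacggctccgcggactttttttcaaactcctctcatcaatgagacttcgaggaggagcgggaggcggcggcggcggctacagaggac
Both strands were searched for the letters GACCACCCA, the GLI consensus, for its core ACCACCC, and for the RUNX core TGTGGT. The 3 motifs overlap in part, since the core lies within the consensus and the RUNX core read on the other strand shares its opening letters ACCAC. None of the 10 windows held the consensus, which was in 0.253% of 32851 promoter windows. The Gli2 match to the core began 205 bases before the start, and 4.61% of all windows held that core. The RUNX core was in the Gli3 window and in 16.8% of all windows. A missing match says only that these letters are not in this window.

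The sections held 2107, 2667, 3029 and 3032 capture spots at days 0, 1, 3 and 7, with 43871586, 16777832, 56113066 and 41832640 unique molecular identifiers (UMIs). Median depth per spot ran from 6322 UMIs at day 1 to 21029 at day 0. Spots of different sections shared between 1539 and 2311 barcodes, as positions on the same array design do. Adult myofibre genes took 25.1% of UMIs at day 0 and 8.46% at day 3. The list of 10 cartilage matrix genes was at 4.11 to 5.99 CPM (UMIs scaled to the total of the section) at days 0, 1 and 3, with 1 to 4 of its genes at 0, and at 1692 CPM at day 7 with none at 0. Days were not tested against each other, because each had 1 section and the spread between animals is unknown, and the 95% intervals cover counting error only. A spot holds several cells, so more cells of a type and more RNA per cell cannot be told apart.

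Ihh RNA was close to absent until the day 7 section. Ihh (chromosome 1, 74945315 to 74951672, GRCm38.p6) had 6, 0, 7 and 507 UMIs in the sections of days 0, 1, 3 and 7. As a level, that was 0.137, 0, 0.125 and 12.1 CPM, and the count of 0 at day 1 allows up to 0.179 CPM. The 3 early sections could not be told apart by counting error, and day 7 stood far above them, at 88.6 times day 0 (95% interval 40.4 to 243). Of 16092 genes tested in that comparison, 33 had a higher ratio. At day 0 and day 3 no spot held more than 1 Ihh UMI, whereas at day 7 there were 305 spots with Ihh (10.1%), 94 of them with 2 or more UMIs and the richest with 15.

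The other hedgehog ligands did not share this course. Shh had 0, 3, 0 and 1 UMIs at days 0, 1, 3 and 7. Dhh, the ligand made by Schwann cells and some endothelium, had 150, 44, 100 and 118 UMIs, or 3.42, 2.62, 1.78 and 2.82 CPM. Dhh was thus lower at day 3 than at day 0 (ratio 0.521, 0.401 to 0.676), and at day 7 its interval took in no change (0.825, 0.643 to 1.06), with 0.542 after TMM scaling, edgeR's correction for differences in RNA composition. Genes for the release and carriage of ligand were at least 2-fold higher at day 7 than at day 0 in 4 of 5 cases (Hhat, Scube1, Scube2 and Scube3), where 32.7% of all genes were, with Scube3 at 0.57, 0.119, 0.143 and 2.32 CPM.

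The PTHrP ligand followed another course. Pthlh (chromosome 6, 147252109 to 147264013) had 42, 43, 105 and 216 UMIs, or 0.957, 2.56, 1.87 and 5.16 CPM at days 0, 1, 3 and 7. It was the only one of the 9 genes at least 2-fold above day 0 in the day 1 section (2.68, 1.71 to 4.20), and it stood at 5.39 times day 0 (3.86 to 7.70) at day 7. Pth and Pth2, which encode the other ligands of the family, and Pth2r had 0 UMIs in all 4 sections.

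The receptor Pth1r (chromosome 9, 110722085 to 110747145), which binds both PTHrP and parathyroid hormone, had 201, 31, 335 and 7709 UMIs, or 4.58, 1.85, 5.97 and 184 CPM. The day 1 level was 0.403 of day 0 (0.267 to 0.591), and the day 7 level was 40.2 times day 0 (35.0 to 46.5), a ratio passed by 66 of the 16092 genes. The day 3 ratio of 1.30 (1.09 to 1.56) turned to 0.891 with TMM scaling, so no direction is given for day 3. At day 7, 1498 of 3032 spots (49.4%) held Pth1r, and the richest spot held 80 UMIs.

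Ptch1 (chromosome 13, 63508328 to 63573460), the hedgehog receptor and itself a target gene, had 239, 66, 242 and 469 UMIs, or 5.45, 3.93, 4.31 and 11.2 CPM. Its level at days 1 and 3 was below day 0 (0.722, 0.541 to 0.952, and 0.792, 0.659 to 0.951), and at day 7 it was 2.06 times day 0 (1.76 to 2.42). Smo (chromosome 6, 29735497 to 29761366) had 284, 95, 757 and 868 UMIs, or 6.47, 5.66, 13.5 and 20.7 CPM, so that it was already higher at day 3 (2.08, 1.82 to 2.40) and higher again at day 7 (3.21, 2.80 to 3.68).

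The 3 Gli genes differed in their course. Gli1 (chromosome 10, 127329882 to 127341579), which serves as a readout of hedgehog signalling, had 38, 8, 49 and 259 UMIs, or 0.866, 0.477, 0.873 and 6.19 CPM. Gli2 (chromosome 1, 118834061 to 119054405), the main activator, had 87, 18, 41 and 113 UMIs, or 1.98, 1.07, 0.731 and 2.70 CPM. Gli3 (chromosome 13, 15463723 to 15730026), the main repressor, had 141, 42, 389 and 375 UMIs, or 3.21, 2.50, 6.93 and 8.96 CPM. Gli1 had an interval that took in no change at day 3 (1.01, 0.647 to 1.58), with 0.689 after TMM scaling, and was 7.15 times day 0 at day 7 (5.07 to 10.3). At day 3, Gli2 was lower (0.368, 0.248 to 0.540) while Gli3 was higher (2.16, 1.77 to 2.63), and Gli3 stayed higher at day 7 (2.79, 2.29 to 3.41). Gli2 at day 7 was 1.36 times day 0 (1.02 to 1.82), a direction that turned to 0.895 with TMM factors.

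Hhip (chromosome 8, 79965850 to 80058060), the decoy that binds hedgehog ligands at the cell surface, had 26, 1, 10 and 46 UMIs, or 0.593, 0.0596, 0.178 and 1.10 CPM. Its single UMI at day 1 was entered at a floor of 3, which put it 3.31-fold below day 0. Counting error on 1 UMI also allows a smaller fall. At day 3 Hhip was below day 0 as well (0.301, 0.129 to 0.645). At day 7 it was 1.86 times day 0 (1.12 to 3.13), a log2 ratio of 0.89 that fell to 0.29 with TMM factors. Against the day 3 level it stood at 6.17 times (3.07 to 13.7).

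**Figure D1:**
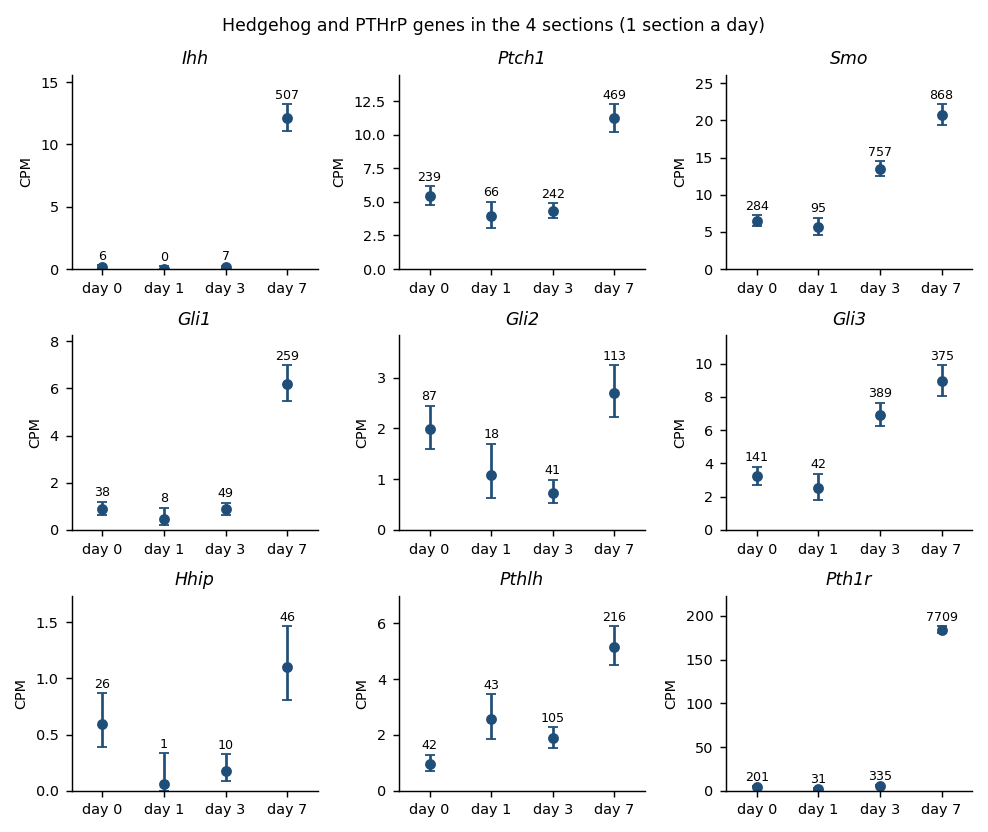
Level of each of the 9 genes in the sections of days 0, 1, 3 and 7, in CPM on linear axes that start at 0 and differ between panels. Points are single sections, bars are exact 95% Poisson intervals of counting error, and the number above each point is its UMI count, which runs from 0 to 507 for Ihh and from 31 to 7709 for Pth1r.

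As a set the genes can be read against all genes tested. From day 0 to day 1, 8 of the 9 had at least 10 UMIs over both sections, of which 1 (Pthlh) was at least 2-fold higher and 2 (Hhip and Pth1r) at least 2-fold lower, where 17.4% and 11.4% of all genes were. From day 0 to day 3, 2 were higher (Smo and Gli3) and 2 lower (Gli2 and Hhip), beside 33.3% and 8.26% of all genes, so the share that was higher was no greater than the background. With TMM factors, size factors or a total without muscle genes, 0 were 2-fold higher at day 3. From day 0 to day 7, 7 of 9 were higher (all but Gli2 and Hhip) and 0 lower, beside 32.7% and 2.13% of all genes, with a median log2 ratio of 1.68 over the 9 genes and 0.65 over all. TMM factors moved every log2 ratio to day 0 by -0.21, -0.55 and -0.61 in the day 1, 3 and 7 sections, after which 5 of the 9 genes were 2-fold higher at day 7, with Ptch1 at 1.35 and Gli3 at 1.83 times day 0. From day 3 to day 7, 7 of 9 were again higher (Gli2 and Hhip in, Smo and Gli3 out) and 0 lower, beside 16.1% and 11.8% of all genes. The median log2 ratio there was 1.89 over the 9 genes and 0.08 over all.

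Other genes of the pathway were counted from fixed lists. Of 13 genes of the cytoplasm and primary cilium, where hedgehog signals are relayed, 5 were at least 2-fold higher at day 7 than at day 0 (Kif7, Evc2, Gpr161, Stk36 and Tulp3) and 0 were lower. Of 5 co-receptor genes, 2 were at least 2-fold higher, among them Boc at 2.69 times day 0 (2.32 to 3.14). Of 8 target genes tested, 4 were at least 2-fold higher, among them Foxf1, Foxf2 and Foxc2, beside 32.7% of all genes. In the PTH family and its signalling partners, 2 of 7 tested genes were higher, Arrb2 and Zfp521. The shares in the cilium, co-receptor and PTH lists lie near the 32.7% of all genes. Hypertrophic cartilage genes were higher in 7 of 8 cases, with Col10a1, the collagen of hypertrophic cartilage, at 0, 0, 19 and 444 UMIs, Panx3 at 0, 0, 0 and 1421, and Ibsp, a protein of mineralizing matrix, at 1, 0, 1 and 9061.

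Within the day 7 section, spots were ranked by the share of their UMIs in the cartilage matrix list, which holds none of the 9 genes. The 304 richest spots (10%) had at least 0.324% of their UMIs in that list. Ihh was 14.6 times higher in these spots than in the rest (12.2 to 17.5), with 311 of its 507 UMIs in them, and Pth1r 11.5 times higher (11 to 12), with 4283 of its 7709 UMIs. In the richest 5% of spots the ratios were 24.8 for Ihh and 17.6 for Pth1r, and with totals that leave out muscle genes they were 11.6 and 9.14. These were close to the ratio of the hypertrophic gene Ibsp, at 13.1 (12.5 to 13.6). Ptch1 was 3.19 times higher (2.58 to 3.94), Gli3 2.86 times (2.23 to 3.64) and Smo 2.72 times (2.31 to 3.19). Thus 5 of the 9 genes were at least 2-fold higher and 0 at least 2-fold lower, beside 23.0% and 6.09% of 15382 genes tested in the same spots. The 4 others were spread differently. Gli1 was 1.53 times higher (1.05 to 2.18), but only 1.22 times with totals that leave out muscle genes. The median log2 ratio of all genes tested in these spots was 0.434. The intervals of Pthlh (0.637, 0.342 to 1.09) and Gli2 (0.515, 0.185 to 1.16) took in no change. Hhip had 0 UMIs in the cartilage-rich spots, which allows up to 0.898 CPM, and 46 in the rest (1.22 CPM). Entered at a floor of 3 UMIs, it was 1.67-fold lower in the cartilage-rich spots, and counting error also allows a smaller difference.

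The spots were then put into 10 equal groups by cartilage share, and Ihh was concentrated in the richest. Its level was 75.7 CPM in the richest group, 16.6 in the next and between 1.01 and 8.70 in the other 8. Pth1r followed the same order, from 1043 and 275 CPM in the richest groups to between 18.8 and 24.9 in the 4 poorest. Gli1 instead lay between 8.22 and 12.1 CPM over the 5 richest groups and between 1.63 and 4.64 in the 5 poorest. Pthlh stayed between 2.98 and 7.76 CPM throughout, and it was at 3.41 CPM in the richest cartilage group. Thus the ligand Ihh and the receptor Pth1r followed the cartilage share, the readout Gli1 was about as high in the next 4 groups as in the richest, and the ligand Pthlh did not follow it.

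**Figure D2:**
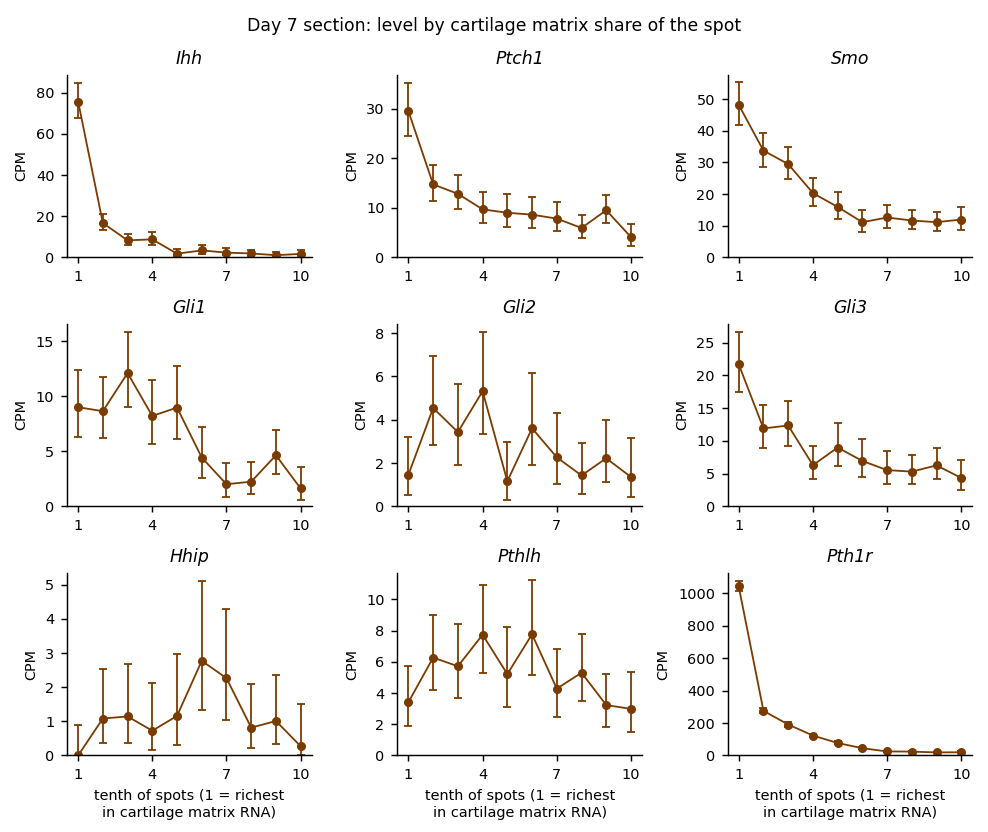
Level of each of the 9 genes in CPM over 10 groups of day 7 spots, ordered from the group richest in cartilage matrix RNA (1) to the poorest (10), with exact 95% Poisson intervals and axes that start at 0. Ihh and Pth1r are highest in the first group, at 75.7 and 1043 CPM, Gli1 lies between 8.22 and 12.1 CPM over the first 5 groups, and Hhip starts at 0.

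Cartilage-rich spots were then divided by their share of hypertrophic RNA (Col10a1, Panx3, Alpl, Ibsp and Mmp13). The richest 10% by each list overlapped in 227 spots, with 77 spots in each list alone and 2651 in neither. Ihh stood at 97.0 CPM in spots rich in both, 26.1 in spots rich in cartilage matrix alone, 16.4 in spots rich in hypertrophic RNA alone and 4.94 in the rest. Pth1r showed the same order, at 1298, 446, 304 and 85.9 CPM. Ihh was thus 3.72 times higher in the doubly rich spots than in those of cartilage matrix alone (2.58 to 5.55). The doubly rich spots also held 3.05 times more RNA of the cartilage collagen Col2a1 (2.91 to 3.20), a ratio within the interval of Ihh, so the step in Ihh cannot be assigned to the hypertrophic genes. Ptch1 was also highest in the doubly rich spots, at 35.1 CPM against 16.3, 9.39 and 9.22. Gli3 was at 22.2 and 20.4 CPM in the 2 classes rich in cartilage matrix and at 9.39 and 7.54 in the others. Pthlh was at 3.13 and 4.07 CPM in the classes rich in cartilage matrix, 11.7 in spots of hypertrophic RNA alone, on 10 UMIs, and 5.21 in the rest. In the order both, cartilage matrix alone, hypertrophic alone and neither, Smo was at 51.1, 41.5, 32.9 and 17.4 CPM. Gli1 was at 10.1, 6.51, 8.22 and 5.83 CPM. Ihh, Pth1r and Ptch1 were therefore highest in the class rich in both lists, and Pthlh was not. Smo, Gli1 and Gli3 were also highest there, but their intervals overlapped those of cartilage matrix alone.

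**Figure D3:**
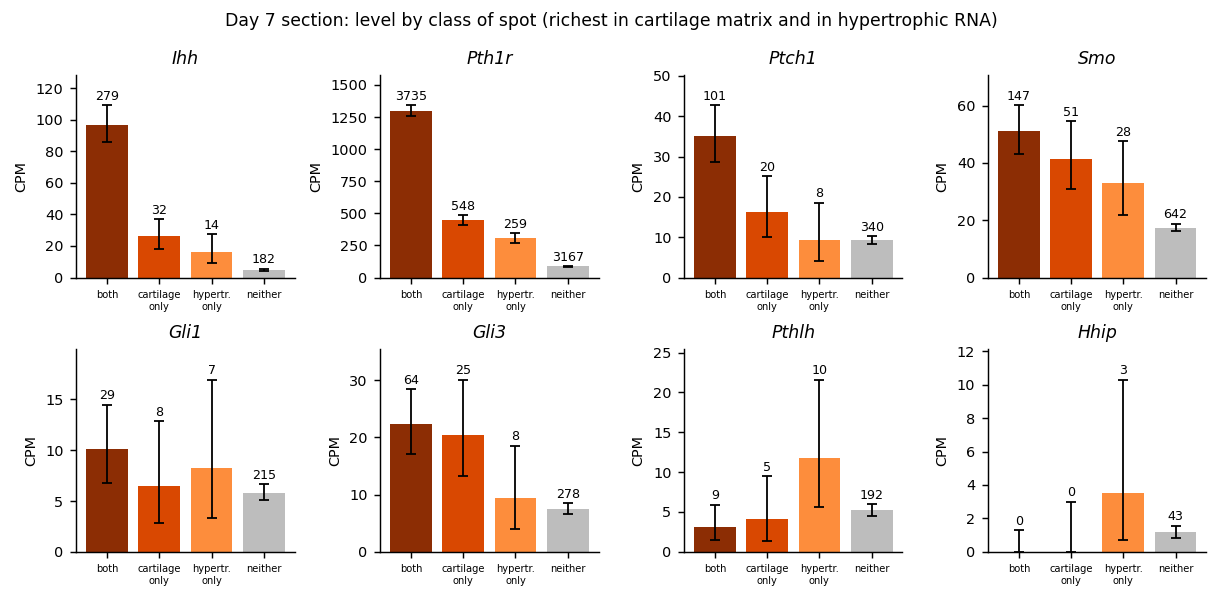
Level of 8 of the genes in CPM in 4 classes of day 7 spots, namely the 227 spots among the richest 10% for both cartilage matrix and hypertrophic RNA, the 77 for cartilage matrix alone, the 77 for hypertrophic RNA alone, and the 2651 in neither. Bars start at 0, error bars are exact 95% Poisson intervals, and the numbers are UMI counts, with Ihh at 97.0 CPM in the first class and 4.94 in the last.

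Spots rich in myofibre RNA were taken for comparison, although at day 7 they were not free of cartilage RNA. With every spot thinned to 2000 UMIs, Col2a1 was found in 15.2% of them at day 7 and in none at days 0, 1 and 3. At the same depth, Ihh was found in 16% of cartilage-rich spots (median depth before thinning 11726 UMIs) and in 1.06% of the 10% of spots richest in myofibre genes (10616 UMIs). Pth1r was found in 76.3% and 4.97%. Against 100 UMIs of Ibsp, Pth1r had 80.5 UMIs in cartilage-rich spots, 91.6 in the rest and 88.7 in myofibre-rich spots, and Ihh had 5.84, 5.24 and 10.3, the last on 10 UMIs. Counts of Pth1r and Ihh for a given count of Ibsp were thus similar inside and outside the cartilage-rich spots. Those of Ptch1 were not, with 2.27 UMIs for 100 of Ibsp in cartilage-rich spots, 9.31 in the rest and 15.5 in myofibre-rich spots. Nor were those of Gli1, with 0.695, 5.94 and 6.19. Smo, Gli3 and Pthlh also had fewer in cartilage-rich spots than in the rest, at 3.72 against 17.9, 1.67 against 7.65 and 0.263 against 5.40. For cartilage-rich spots against the rest, these counts restate the cartilage ratios given above and are no separate result. Spread of RNA between spots was not tested.

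Spots that held Ihh were compared with spots that did not. Among cartilage-rich spots, 141 had at least 1 Ihh UMI and 163 had none, at median depths of 10888 and 12381 UMIs. Col10a1 was 5.02 times higher in the Ihh-positive spots (3.72 to 6.88), Col2a1 2.27 times (2.20 to 2.34) and Pth1r 2.14 times (2.01 to 2.28). Mki67, a gene of dividing cells, had a ratio of 1.16 (0.868 to 1.54). Ptch1 (1.08, 0.740 to 1.56), Smo (0.916, 0.683 to 1.22), Gli1 (0.993, 0.488 to 2.0) and Gli3 (0.998, 0.641 to 1.55) had intervals that took in no change. So within cartilage, Ihh-positive spots had more matrix and hypertrophic RNA, and among these genes only Col10a1 rose beyond Col2a1. A difference in Ptch1, Smo, Gli1 or Gli3 was not detectable at this depth. Over all day 7 spots, where Ihh-positive spots were deeper (15148 against 11798 UMIs) and richer in cartilage RNA, Ptch1 was 1.61 times higher (1.26 to 2.04), Smo 1.72 times (1.45 to 2.04), Gli1 1.45 times (1.02 to 2.01) and Gli3 1.57 times (1.19 to 2.04).

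The design also asked how often pairs of these genes fell in the same spot, at 2000 UMIs a spot. Ihh with Ptch1 and Pthlh with Pth1r pair a ligand with its receptor, while Ihh is no ligand of Pth1r. At day 7, Ihh with Pth1r shared 50.6 of 2948 spots on average over 20 draws (1.72%, 1.29 to 2.27), 3.38 times the product of their separate shares. Ihh with Ptch1 shared 0.148% of spots (0.037 to 0.347), 2.81 times the product, on 4.35 spots. Pthlh with Pth1r shared 0.197% (0.0747 to 0.442), at 0.947 of the product. Ihh with Hhip shared none, which allows up to 0.102%. The product for that pair was only 0.165 spots, so a count of 0 cannot show a departure from it. With all UMIs Ihh with Hhip shared 3 spots against 3.82 from the product. Ihh was too scarce at days 0, 1 and 3 for its pairs to be compared. The interval of Ihh with Pth1r lay above the product, whereas those of Ihh with Ptch1 and of Pthlh with Pth1r took it in at this depth. With more UMIs a spot this differed, since Ihh with Ptch1 shared 12.2 spots against 4.98 from the product at 4000 UMIs and 69 against 37.6 with all UMIs. Pthlh with Pth1r shared 16.5 against 15.7 spots at 4000 UMIs and 124 against 95.4 with all UMIs. The product was taken over all spots of the section, while Ihh, Pth1r and Ptch1 were each higher in cartilage-rich spots. The parts of spot depth and of this common place in the shared counts were not tested.

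Outside cartilage, several of the genes were concentrated elsewhere. In the uninjured section, 18 of the 38 Gli1 UMIs fell in the 211 spots richest in Schwann cell markers (among them Mbp, Mag, Sox10 and Prx), 9.39 times the level of the rest (4.69 to 18.7). At day 3 the ratio was 6.58 (3.47 to 12.1) on 18 of 49 UMIs, and at day 7 it was 1.51 (0.976 to 2.26) on 27 of 259. Dhh was higher in the same kind of spots in every section, at 2.50, 6.33, 2.83 and 5.48 times the rest at days 0, 1, 3 and 7. At day 1, 6 of the 8 Gli1 UMIs lay in such spots. The spots richest in the mesenchymal stromal cell (MSC) list, which can be the same spots, also had more Gli1, at 4.86 times the rest at day 0 (2.23 to 9.97), 28.3 times at day 1 (5.51 to 182) on 5 UMIs and 2.50 times at day 3 (1.15 to 4.99). At day 7 Gli1 was 3.43 times higher (2.56 to 4.55) in MSC-rich spots, while Ihh there was at 0.728 of the rest (0.501 to 1.03).

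Hhip at day 7 lay in spots rich in stromal, fat, vessel and nerve markers. The ratio was 8.36 in adipocyte-rich spots (4.31 to 15.7), 7.56 in MSC-rich spots (4.0 to 14.1), 6.63 in smooth muscle-rich spots (3.42 to 12.5) and 6.29 in Schwann cell-rich spots (3.16 to 12.0). These classes share spots, so the 4 ratios are not separate results. Pthlh was 3.57 times higher in spots rich in smooth muscle markers at day 0 (1.62 to 7.29) and 4.28 times at day 3 (2.71 to 6.62), and at day 7 the interval took in no change (1.41, 0.884 to 2.17). In spots richest in cell cycle genes at day 7, Ihh was 5.14 times higher (4.24 to 6.20) and Pth1r 4.99 times (4.76 to 5.24). The cartilage region described next had the most cell cycle RNA of the 7 day 7 regions, 552 CPM against 64.2 to 224 in the others, so this contrast is not separate from that of cartilage. In myofibre-rich spots at day 7 the level of Ihh was 0.212 and that of Pth1r 0.119 of the rest.

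**Figure D4:**
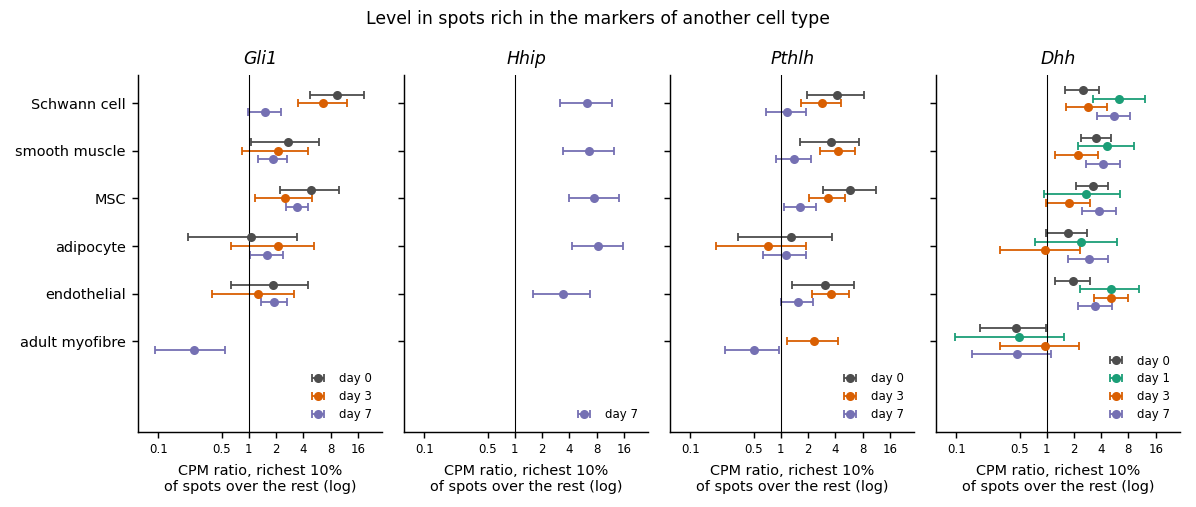
Ratio of CPM in the 10% of spots richest in the markers of a cell type (rows) over all other spots of the same section, on a log axis, for Gli1, Hhip, Pthlh and Dhh. Points are single sections coloured by day, bars are exact 95% intervals of counting error, and the line marks a ratio of 1. Gli1 and Pthlh are drawn for days 0, 3 and 7, Hhip for day 7 alone and Dhh for every day. Among these, contrasts that needed the floor of 3 UMIs are left out. Gli1 in Schwann cell-rich spots is at 9.39 at day 0 and 1.51 at day 7.

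Regions found by clustering the spots of each section, with the 9 genes and all marker lists left out of the clustering, gave a similar picture as a description. At day 7 there were 7 regions, and region 5 (285 spots, led by Col10a1, Col9a1, Col2a1 and Col9a3) held 9.84% of all UMIs. It held 58.2% of the Ihh UMIs (53.8 to 62.5) and 52.4% of those of Pth1r (51.3 to 53.5). Its shares of Smo (28.2%), Ptch1 (26.4%) and Gli3 (25.3%) were also above its share of all UMIs, though at a finer clustering they were 9.22%, 15.1% and 10.4% in a smaller region that held 4.39% of all UMIs, and those of Pthlh (8.80%) and Hhip (4.35%) were below it. Region 3 (455 spots), led by Nnat, Cyp2e1 and the fat cell gene Cfd, held 41.3% of the Hhip UMIs. Gli1 was at 11.3 CPM in region 4, led by the slow fibre genes Myh7 and Myl2, and at 10.4 CPM in region 5. Gli1 was therefore not highest in the cartilage region, though the intervals of the 2 regions overlapped (8.35 to 15 and 7.56 to 14.1).

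**Figure D5:**
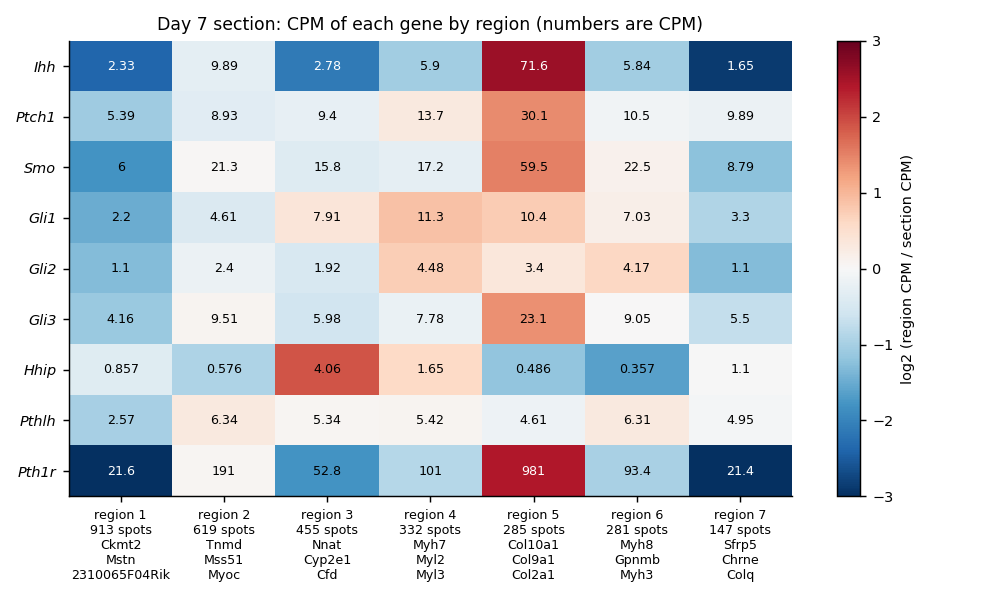
CPM of each of the 9 genes (numbers) in the 7 regions of the day 7 section, with the colour giving the log2 ratio to the whole section on a scale that ends at -3 and 3. Regions are named under the plot by their number of spots and 3 leading genes, and region 5 has 71.6 CPM of Ihh and 981 of Pth1r.

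Regional levels in the earlier sections rest on fewer UMIs. At day 3, 42 of the 335 Pth1r UMIs lay in region 7 (76 spots, led by the fat genes Wfdc21, Pck1 and Cfd, with 3042 CPM of the tendon list), at 66.6 CPM (48.0 to 90.0). In the same section 18 of the 105 Pthlh UMIs lay in region 8 (44 spots, led by Cytl1 and the smooth muscle genes Cnn1 and Myh11), at 23.9 CPM (14.2 to 37.7). At day 1 a region of 54 spots led by Cytl1, P2rx1 and Actg2 had 14.5 CPM of Pthlh on 5 UMIs. At day 3, Pth1r and Pthlh thus had their highest regional levels in different regions.

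Likeness was measured as Pearson's r of log2(CPM + 1) over the 27 regions of all sections, a description over points that share sections, among 12729 genes. The 5 genes most like Ihh were Slc13a5 (0.978), Snorc (0.975), Panx3 (0.972), Cnmd (0.970) and Col10a1 (0.968). Among those most like Gli1 were Nr2f1 (0.927), S100b (0.901), Dact1 (0.894) and Nrbp2 (0.889). Pth1r was nearest to Fgfr2 (0.957), Fads2, Dnm1, Scarf2 and Edil3 (0.938), and Pthlh to Gja4 (0.846), Lama5, Jag2, Grip2 and Olfr78 (0.783). Smo was nearest to Slc39a13, Plscr3, Olfml3, Selenom and Vkorc1 (0.945 to 0.953), Gli3 to Arsb, Tspan6, Pcgf2, Cemip2 and Yipf4 (0.898 to 0.913), Ptch1 to Cdkn2aip, Myo6, B230354K17Rik, Hoxc6 and 2510009E07Rik (0.845 to 0.893), and Gli2 to Calcrl, Fuz, Zfp423, Olfml2a and Pear1 (0.748 to 0.825). Hhip had too few UMIs for the measure. Between the genes themselves r was 0.894 for Ihh with Pth1r, 0.849 for Gli1 with Pth1r, 0.823 for Smo with Pth1r, 0.736 for Ihh with Gli1 and 0.350 for Pthlh with Pth1r.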

How the data were processed

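Spatial RNA was measured on 4 sections, 1 a day. The files the authors deposited hold unnormalized counts of UMIs for every gene in every spot. Their headers name Space Ranger 1.2.0, the labels and methods name other versions, and the build is mm10 per the labels. Coordinates and promoters come from RefSeq tables of GRCm38.p6. All 10835 spots were used. Doublets were not called, since spots mix cells, and spot positions were not used here.

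Counts were summed per section or class of spots and scaled to CPM, with exact Poisson intervals. Ratios have exact conditional binomial intervals and shares exact Clopper-Pearson intervals, all at 95%. A sum under 3 UMIs was entered at 3. Genes with at least 10 UMIs over both sides were tested against a 2-fold threshold. Spots were thinned to 2000 UMIs in 20 draws, which left out 17, 513, 9 and 84 spots. Rich spots were the top 10% by share of a list. Regions were Leiden clusters (log of counts scaled to 10000, 2000 variable genes, 30 components, 15 neighbours, resolution 0.5, seed 1). Named genes were the 9 members, list genes that give context, and the 5 genes most like each member with at least 100 UMIs, among genes with at least 200 UMIs. The genes, lists and comparisons were chosen with earlier results of these data known. Calculations were tested on simulated data. No p-value was computed. Some genes of the lists are not reported here.

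Scanpy 1.11.5 with leidenalg 0.10.2 made the regions, edgeR 4.0.16 the TMM factors and DESeq2 1.42.0 the size factors, in R 4.3.3, and matplotlib 3.10.9 the figures. All else was run in Python 3.11.15 with SciPy 1.17.1, pandas 2.3.3 and NumPy 2.4.6. Other settings tried were those scalings, totals that leave out myofibre, mitochondrial and haemoglobin genes, spots of at least 1000 UMIs, a 1.5-fold threshold, no UMI minimum, intervals that leave out 1, other shares of spots, other thinning depths, and other clusterings.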

Additional observations from a re-analysis of the deposited data

How the results depend on the processing

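Of 71 alternative values for the counts and main measures, 56 were classed as near the reported value. Of 203 for single genes, 150 were classed as near, 47 as moved and 6 as reversed. These classes do not catch every change of direction. The day 3 log2 ratio of Gli1, classed as near, went from 0.012 to -0.54 with TMM factors, -0.55 with size factors and -0.37 without muscle genes. The cartilage ratio of Gli2, classed as moved, went from 0.515 to 1.19 with the richest 20% of spots. The number of the 9 genes at least 2-fold higher at day 7 than at day 0 was 7, and 5 with TMM or size factors. That fall was classed as near, so the tally is not a measure of unchanged values. The number of the 9 genes at least 2-fold lower at day 1 went from 2 to 4 with TMM factors, with size factors, with a total without mitochondrial, haemoglobin and adult myofibre genes, and at 1.5-fold. The number at least 2-fold higher at day 3 went from 2 to 0 under those 3 scalings. The day 3 log2 ratio of Pth1r turned to -0.17 with TMM factors, -0.18 with size factors and -0.00082 with the total without muscle genes, and the day 7 log2 ratio of Gli2 to day 0 turned to -0.16 and -0.19 with the first pair. The shifts follow from the scaling factors, which act on all genes alike. With the richest 5% of spots the cartilage ratio of Ihh was 24.8 and that of Pth1r 17.6. Hhip was entered there at a floor that gave a ratio of 1.69, which comes from the floor and is no level. Shared spots depend on depth: Ihh with Ptch1 went to 0.0331% at 1000 UMIs, 0.447% at 4000 and 2.28% with all UMIs, and Pthlh with Pth1r to 0.0563%, 0.605% and 4.09%. At a clustering resolution of 1 the cartilage-richest region was smaller and held 52.1% of Ihh and 43.5% of Pth1r UMIs. No paired analysis was possible because each day had 1 section. The day 1 section was the shallowest, and Ihh had no UMI there.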
